A study of Mus musculus with 8 samples.

Results

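The data are scRNAseq libraries of leukocytes from the liver of 8 mice (C57BL/6J females, 9 weeks old), and each library holds 1 animal. Controls (replicates 1 to 4) were left untreated. Replicates 5 to 8 received 1.2 mg of β-glucan (BG, the soluble product odetiglucan, also named Imprime PGG) intravenously on day 0, and livers were taken on day 2. No mouse carried a tumor, a transgene or a deletion according to the labels, and the control mice are labelled only as control, with no injection named.

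The cells described here are classical monocytes and monocyte-derived macrophages, chosen by a gate on counts of unique molecular identifiers (UMIs), each of which stands for 1 captured RNA molecule. A barcode was kept with 200 to 5000 detected genes and at most 30% of its UMIs from mitochondrial genes. It entered the gate with at least 1 UMI of Csf1r, the receptor for the growth factor of the macrophage lineage, and with at least 2 of Ccr2, F13a1, Chil3, Fn1 and Ms4a4c detected. It also had to hold 0 UMIs of 7 excluding genes, namely Clec4f and Timd4 (KCs), Siglech (plasmacytoid dendritic cells), Cd79a (B cells), Cd3e and Trac (T cells) and Kdr (endothelium). The gate held 391 of 53654 kept barcodes, which is 0.729%. There were 57, 59, 23 and 42 such cells in control replicates 1 to 4 and 33, 61, 68 and 48 in BG replicates 5 to 8.

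Classical monocytes leave the bone marrow through the chemokine receptor Ccr2, circulate with high Ly6C on their surface, and enter tissues, where they can become macrophages or antigen-presenting cells. In the liver they are distinct from KCs, the resident macrophages that line the sinusoids. Type I interferon acts on such cells through a surface receptor and the kinases bound to it, and the genes it switches on limit viral replication and raise antigen presentation on MHC class I. β-glucans are cell wall polymers of yeast and other fungi that pattern recognition receptors of myeloid cells bind.

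Kept barcodes numbered 6784 to 8378 in control libraries and 4644 to 6814 in BG libraries. In BG replicate 5, 66.6% of all UMIs were mitochondrial, and 4644 of 27873 barcodes were kept. The gated cells of a library held 113146 to 335357 UMIs in controls and 147795 to 353450 after BG, with medians per cell of 3845 to 5557 and 4161 to 5331. No barcode sequence occurred in the gate of more than 1 library, although 382 of 53271 kept barcode sequences occurred in more than 1 library and 9 gated cells carried a sequence also seen in another library.

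By the choice of the cells, Ccr2 was detected in 83.4% of the gated cells, Ms4a4c in 84.7%, Chil3 in 59.8%, F13a1 in 57.5% and Fn1 in 56.5%. Exactly 2 of the 5 genes were detected in 117 cells, 3 in 87, 4 in 93 and all 5 in 94. The 117 cells just inside the limit had 906 CPM (the gene's UMIs scaled to the UMI total of the cells) of Ly6c2, 4636 CPM of Lyz2 and 355 CPM of C1qa, and the 242 cells just outside it, with 1 gene of the 5, had 180.1, 1259 and 425 CPM. Cells with 3 or more of the 5 genes had 2418, 19562 and 36.7 CPM. The label was compared with genes that the rule did not use, as a description. Over control libraries, median levels were 789.7 CPM of Ly6c2, 2478 CPM of Plac8 and 17605 CPM of Lyz2 in the gate, against 0, 180.3 and 2989 CPM in a KC gate of 296 cells. C1qa, a subunit of complement C1q that tissue macrophages make, had a median of 139 CPM over control libraries and 128 CPM over BG libraries in the gate, against 3713 and 4164 CPM in the KC gate. Since macrophage genes were low, the cells are called monocyte-lineage cells below.

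Genes of other cell types were also counted in these cells. The summed level of 12 T cell genes ran from 221 to 501 CPM in control libraries and from 286 to 643 CPM in BG libraries, and that of 10 NK cell genes from 80.0 to 309.8 CPM and from 266 to 1083 CPM. Summed KC genes (12) ran from 188 to 928 CPM and from 339 to 603 CPM, and summed hepatocyte genes (11) from 344 to 525 CPM and from 453 to 813 CPM. Summed B cell genes (10) ran from 152 to 179 CPM and from 115 to 201 CPM, and of these the defining Pax5 and the gene Fcmr were at 0. The sum of 9 genes of conventional dendritic cells of type 1 was 338 to 534 CPM in controls and 413 to 832 CPM after BG. For type 2 (10 genes) it was 434 to 742 and 480 to 905 CPM, against 364 to 424 and 301 to 429 CPM in all other kept barcodes. For non-classical monocytes (10 genes) it was 561 to 834 and 592 to 913 CPM, against 368 to 496 and 356 to 579 CPM. Further excluding genes of dendritic, T, B, NK and endothelial cells were used as an alternative below. They left 36, 42, 12 and 33 gated cells in control replicates 1 to 4. In BG replicates 5 to 8 they left 24, 39, 43 and 29. Beyond that setting, the part of these genes in the results was not tested.

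The genes that chose the cells are given as a description only. Mean levels of Ccr2 were 779.7 ± 173 CPM (SD, n = 4) in control and 638 ± 42.8 CPM (SD, n = 4) in BG libraries, here and below scaled between libraries by the trimmed mean of M values (TMM). Fn1, which encodes fibronectin, had 1176, 723, 483 and 825 CPM in controls and 265, 357, 367 and 466 CPM after BG. F13a1, a transglutaminase subunit of coagulation factor XIII, had 538, 543, 292 and 591 CPM against 288, 312, 225 and 363 CPM. Ms4a4c, a membrane protein gene that interferon can raise, had 390.0, 428, 433 and 382 CPM against 818, 676, 1102 and 790.5 CPM. Ms4a4c was detected in 74.0% of the control cells and 93.8% of the BG cells, and a gate without it was used as an alternative for the share of cells, the gene tests, the interferon gene count and the Ly6c2 share, but not for the MHC class II and C1q shares or the comparisons with other cells. Chil3, which encodes a chitinase-like secreted protein, and Csf1r had overlapping groups.

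The first question was whether BG changed how many monocyte-lineage cells the liver suspensions held. They made up 0.772, 0.789, 0.275 and 0.619% of kept barcodes in controls and 0.711, 0.895, 1.19 and 0.742% after BG. The groups overlapped. Means were 0.614 ± 0.239% and 0.885 ± 0.220% (SD, n = 4 each), and the difference was not significant (exact permutation test, two-sided, p = 0.171, where 4 against 4 allows no p below 0.0286). With each kept barcode thinned to 1500 UMIs the means were 0.439 and 0.497% (exact p = 0.686), and without Ms4a4c in the gate they were 0.510 and 0.606% (exact p = 0.571).

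The excluding genes touched this share unequally. Of the barcodes that met every other condition, 436 in control and 680 in BG libraries, the 7 genes removed 57.9 to 59.6% per control library and 64.7 to 76.1% per BG library. Cd3e was detected in 36.5% of these candidates in controls and 46.8% after BG, Trac in 35.6 and 47.8%, Kdr in 29.1 and 31.8%, and Clec4f in 5.05 and 10.3%. Before this step, a setting added after the data had been seen, candidates made up 1.48% of kept barcodes in controls and 2.86% after BG (exact permutation test, p = 0.0286, higher in BG in 16 of 16 pairs of libraries). This setting still used Ms4a4c, at full depth, and was not repeated without that gene or after thinning. Its difference is therefore not read as a change in cell number. Shares depend on the CD45 enrichment and on the density gradient cells added to each suspension, and cells lost in preparation cannot be told apart from cells absent from the liver.

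**Figure D1:**
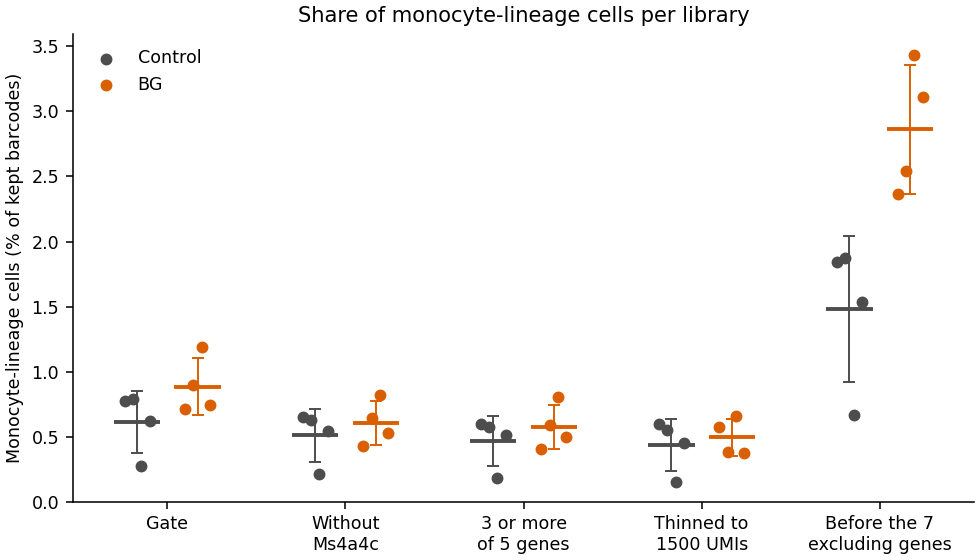
Share of kept barcodes that were monocyte-lineage cells (y axis, %) in each library, under the gate and 4 other settings (x axis). Points are libraries, lines and bars the mean and SD of 4 control (grey) and 4 BG (orange) libraries; groups overlap except before the excluding genes, where the means were 1.48 and 2.86%.

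The second question was which genes differed between BG and control within these cells. UMIs were summed over the gated cells of a library and tested by edgeR's quasi-likelihood F test, with p-values adjusted by the Benjamini-Hochberg method over 3535 genes. Calls needed an adjusted p below 0.05 and a log2 fold change above 0.5 or below -0.5. BG raised 54 genes, 1.53% of those tested, and lowered 10, or 0.283% (1.81% in either direction). Gate genes aside, 53 rose and 8 fell. An unadjusted p under 0.05 was reached by 391 genes. The CPM of the groups did not overlap for 246 of the 3535 genes (6.96%), among them 46 of the 54 and 9 of the 10. The median log2 fold change of all genes tested was -0.01.

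**Figure D2:**
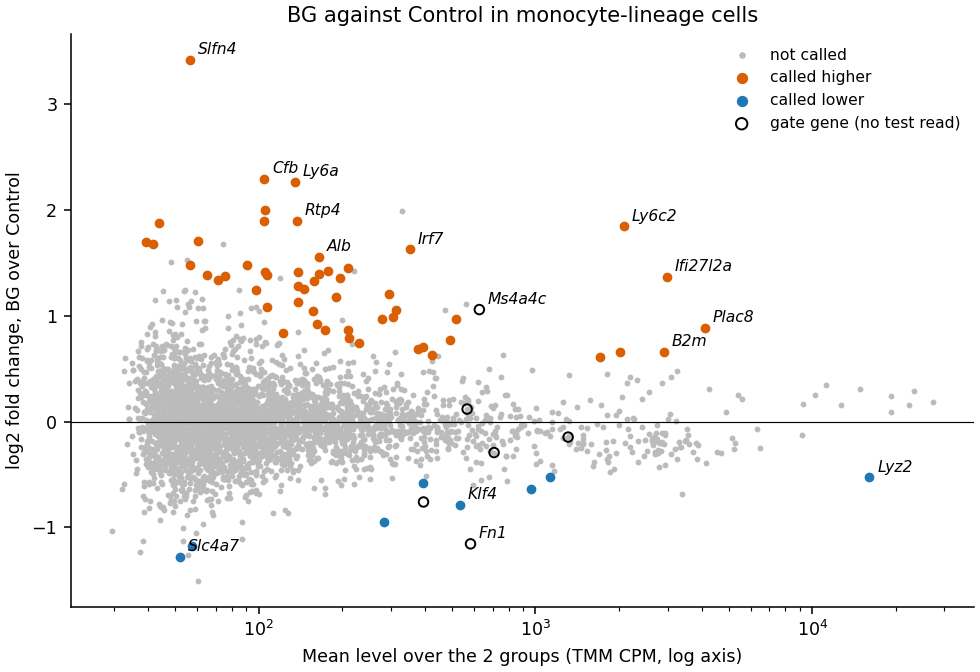
Each point is 1 of 3535 genes, with its mean level on the x axis (TMM CPM, log scale) and the log2 fold change of BG over control on the y axis. Orange and blue mark genes called higher and lower, and open circles the gate genes; Ly6c2, Ifi27l2a and Plac8 stand out among the well expressed genes.

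The longest list among the genes that rose was that of type I interferon. Of 47 listed genes 37 passed the filter on low counts; 20 of the 37 rose, none fell, and the median log2 fold change of the 37 was 1.07. The count was 6 of 40 without control replicate 1, 10 of 36 without BG replicate 7 and 1 of 27 with at most 10% mitochondrial UMIs, with medians of 0.97, 0.93 and 0.99. With further excluding genes of dendritic, T, B, NK and endothelial cells it was 13 of 33, with a median of 1.10. Irf7, the transcription factor that amplifies the interferon response, had 126, 128, 191 and 265 CPM in control replicates 1 to 4 and 561, 414, 766 and 359 CPM in BG replicates 5 to 8. Every BG library was above every control library (log2 fold change 1.63 ± 0.26 SE, adjusted p = 0.00204). Ifi27l2a, an interferon-induced gene of the Ifi27 family, rose from 1392, 2032, 1459 and 1791 CPM to 4057, 3719.9, 5730.3 and 3734 CPM (1.37 ± 0.15, edgeR adjusted p = 6.29e-05). It was the second smallest adjusted p of all genes, after Ly6c2.

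Effector genes of the response moved in the same direction. Rtp4, an interferon-induced chaperone of receptors, had 58.0, 55.6, 50.3 and 61.5 CPM in controls and 280.4, 183, 263 and 145 CPM after BG (1.89 ± 0.25, edgeR adjusted p = 0.000485), a narrow control group with no overlap. Ifit3, one of the tetratricopeptide repeat proteins that bind foreign RNA, had 29.0, 51.3, 60.4 and 49.2 CPM against 148, 171, 215 and 115 CPM (1.89 ± 0.28, edgeR adjusted p = 0.000979). Oas2, a synthetase of the RNA-degrading oligoadenylate pathway, was at 0 in control replicate 3 and at 16.1 to 29.9 CPM in the other controls, against 47.0 to 93.5 CPM after BG (edgeR adjusted p = 0.0198, lost without BG replicate 5 or 7 or control replicate 1 or 4). Isg15, the ubiquitin-like modifier, had 87.0, 137, 322 and 234 CPM against 312, 300.2, 568 and 406 CPM, and its groups overlapped through control replicate 3 (1.20 ± 0.29, edgeR adjusted p = 0.0424, a call kept only without BG replicate 6 or control replicate 3 when 1 library was left out). Bst2, which tethers budding virions, and Ly6e also rose, by 0.97 and 0.66 on the log2 scale, and the call of Bst2 was lost without BG replicate 5 or 7 or control replicate 1 or 4. The calls of Irf7, Ifi27l2a, Rtp4, Ifit3 and Ly6e held without any 1 of the 8 libraries. The others that rose were Ifit1, Ifit2, Oas3, Oasl2, Zbp1, Xaf1, Trim30a, Rnf213, Slfn5, Phf11b, Phf11d and Eif2ak2. Ifitm3, an abundant restriction factor, did not pass the threshold (0.30 ± 0.12, edgeR adjusted p = 0.269).

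Interferon-linked genes outside the list rose too. Of 29 listed genes induced by interferon gamma, 17 passed the filter, and 15 of these had a positive log2 fold change (median 0.53). Psmb9 and Tap1, given below with MHC class I, rose and none fell, and 8 had an unadjusted p under 0.05 (edgeR). Which interferon acted on the cells was not tested. Slfn4, a Schlafen family gene of monocytes on mouse chromosome 11 (83175186 to 83190216, GRCm38), had 6.45, 4.28, 10.1 and 18.5 CPM in controls and 140.2, 69.1, 135 and 68.4 CPM after BG, the largest log2 fold change of all genes tested (3.42 ± 0.47, edgeR adjusted p = 0.000596). Slfn4 had 2, 1, 1 and 3 UMIs in control replicates 1 to 4 and 18, 23, 39 and 16 in BG replicates 5 to 8. Its control level thus rests on few molecules. Slfn1 rose by 1.45. Of 10 tested genes of the p200 family of DNA sensors, a group looked at after values were seen, 6 rose (Ifi205, Ifi206, Ifi209, Ifi211, Ifi213 and Mndal). Ifi207 (0.13 ± 0.16, edgeR adjusted p = 0.852), Ifi203 (0.47), Ifi204 (0.62) and Aim2 (0.68) did not pass the test. Ifi213 went from 29.0, 47.1, 60.4 and 67.7 CPM to 109, 90.1, 166 and 158 CPM, a call lost without BG replicate 7 or control replicate 1 or 2. Genes of the Schlafen, p200, Oas, Ifit, Phf11, Ly6 and H2 families have close relatives in the genome, so the split of UMIs within a family is uncertain.

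The response was spread over the cells. In cells thinned to 2000 UMIs (178 control and 206 BG cells deep enough), the mean number of type I interferon list genes detected per cell was 7.67, 8.28, 7.65 and 8.0 in control libraries and 13, 12.8, 14 and 12.4 in BG libraries. The lowest BG library was above the highest control library, and group means were 7.90 ± 0.300 and 13 ± 0.681 (SD, n = 4 each, exact permutation test p = 0.0286, the smallest that 4 against 4 allows). At full depth the means were 12.2 and 19.9. The same count rose in cells gated as B cells, from a median over libraries of 3.65 to 6.57, and in those gated as T cells, from 5.10 to 8.11, thinned to the same depth.

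**Figure D3:**
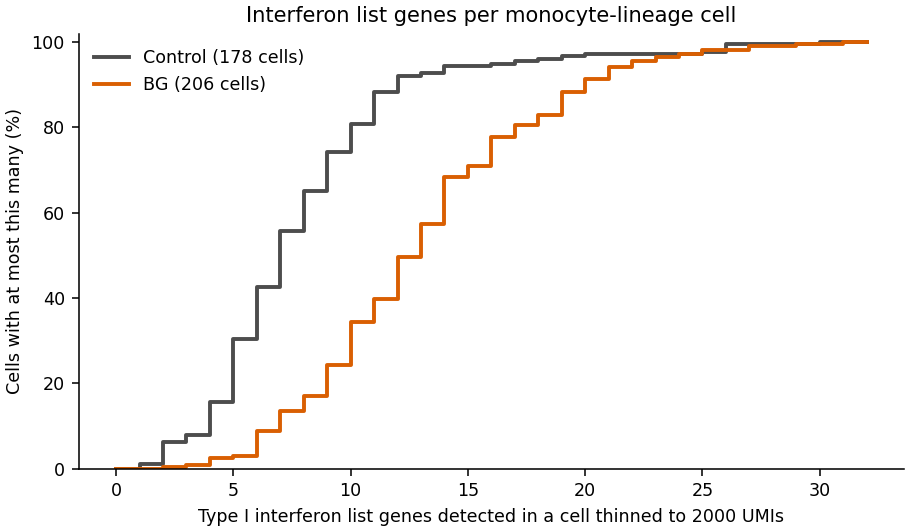
Cumulative share of monocyte-lineage cells (y axis, %) by the number of type I interferon list genes detected in a cell thinned to 2000 UMIs (x axis), for 178 control cells (grey) and 206 BG cells (orange). The BG curve lies to the right, with library means of 12.4 to 14 against 7.65 to 8.28.

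The count rose within subsets of the cells, a split chosen after the data had been seen. Among cells with at least 5 UMIs of MHC class II genes after thinning, it went from 7.65 to 11.9, and among the others from 8.05 to 13.7 (exact permutation p = 0.0286 each). The difference between these rises was not significant (exact permutation p = 0.143). The gate here included Ms4a4c, and the split by MHC class II was not repeated without that gene. Its values are therefore given as a description. Likewise, cells with exactly 2 of the 5 gate genes went from 6.92 to 11.9 and those with 3 or more from 8.12 to 13.7. Most cells with exactly 2 passed the gate only through Ms4a4c, which interferon can raise. The rise in these cells and its difference from the rise in the others are therefore not read as results. In the gate without Ms4a4c the means were 7.86 and 13.4.

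Promoter sequences are shown for interferon-linked genes that rose, because the interferon-stimulated response element is a short motif near the start of many such genes. The motif searched was GAAA, then 2 bases of any kind, then GAAA, on both strands, with overlapping matches counted, in windows of 250 bases before to 50 bases after each gene start (RefSeq, GRCm38.p6). It was present for 17 of the 43 genes called higher that had a window (39.5%) and for 1079 of all 27025 genes with a window (3.99%). It was present for 138 of 2790 genes tested and not called (4.95%) and for none of 7 genes called lower. These shares describe letters and not binding. The 250 bases before the start are printed 5′ to 3′ on the gene's strand, with matches in capitals, for the 3 genes with the largest fold changes among the named genes that held it. They lie at chr19:34583279-34583528 on the plus strand (Ifit3, 2 matches), at chr1:173599273-173599522 on the minus strand (Ifi213, 1 match) and at chr8:71537473-71537722 on the minus strand (Bst2, 2 overlapping matches).
Ifit3: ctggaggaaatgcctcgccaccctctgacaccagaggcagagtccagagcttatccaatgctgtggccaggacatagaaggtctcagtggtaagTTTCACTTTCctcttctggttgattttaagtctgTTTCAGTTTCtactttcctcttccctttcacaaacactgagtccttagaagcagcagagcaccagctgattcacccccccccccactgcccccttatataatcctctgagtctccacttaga
Ifi213: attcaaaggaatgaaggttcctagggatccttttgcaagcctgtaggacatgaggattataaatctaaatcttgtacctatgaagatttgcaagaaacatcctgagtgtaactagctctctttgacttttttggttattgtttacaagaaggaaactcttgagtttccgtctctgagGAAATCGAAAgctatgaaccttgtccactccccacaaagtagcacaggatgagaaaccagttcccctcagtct
Bst2: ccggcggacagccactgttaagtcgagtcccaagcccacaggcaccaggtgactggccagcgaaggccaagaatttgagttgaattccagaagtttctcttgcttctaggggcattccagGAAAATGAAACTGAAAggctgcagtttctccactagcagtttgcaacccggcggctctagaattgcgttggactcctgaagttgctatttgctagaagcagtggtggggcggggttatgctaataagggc

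The matches of Ifit3 began 156 and 122 bases before the start, that of Ifi213 began 73 bases before it, and those of Bst2 began 130 and 124 bases before it. The TTTC runs of Ifit3 are the motif read on the other strand.

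Genes of the MHC class I pathway formed the next group. Of 22 listed genes 19 passed the filter, 7 rose and none fell, with a median log2 fold change of 0.42. The count was 2 without control replicate 2, 3 without control replicate 3 or 4 or BG replicate 7, 4 without BG replicate 5 or 8, 2 before the excluding genes and 0 of 14 with at most 10% mitochondrial UMIs (edgeR). B2m, the light chain shared by all MHC class I molecules, rose from 2881, 2293, 1912 and 1908 CPM to 3894, 2741, 4026 and 3623 CPM (0.65 ± 0.14, edgeR adjusted p = 0.0203), and BG replicate 6 was below control replicate 1. H2-K1, a classical heavy chain, had 1386, 1330.4, 1389 and 1317 CPM against 2188, 1672, 2245 and 2162 CPM, with no overlap (0.61 ± 0.11, edgeR adjusted p = 0.00684). H2-Q7, a non-classical heavy chain, had 99.9, 85.6, 141 and 129 CPM against 257, 192, 305 and 363 CPM (1.35 ± 0.22, edgeR adjusted p = 0.00274). Tap1, a half-transporter that loads peptides into the endoplasmic reticulum, and Psmb9, a subunit of the immunoproteasome, rose by 0.87 and 0.74, with adjusted p of 0.0469 and 0.0482, close to the threshold. H2-T22 and H2-T23 rose as well. With 1 library left out in turn, the calls of H2-K1 and H2-Q7 held in 8 of 8 fits and that of H2-T22 in 7 (lost without control replicate 2), whereas B2m and Psmb9 held in 2 and Tap1 and H2-T23 in 1.

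MHC class II genes did not pass the test in either direction. Of 18 listed genes 13 passed the filter, 0 were called by edgeR or by DESeq2, 2 had an unadjusted p under 0.05 (edgeR), and the median log2 fold change was 0.22. With at most 2500 genes per barcode 2 of 12 were called higher. H2-Aa, an alpha chain of MHC class II, had 2539.7, 1039, 2174 and 1834 CPM in controls and 1986, 2456, 2169 and 2260.3 CPM after BG, overlapping groups (0.23 ± 0.18, edgeR adjusted p = 0.736). The share of thinned cells with at least 5 UMIs of H2-Aa, H2-Ab1, H2-Eb1 and Cd74 together was 38.6, 33.3, 34.8 and 36.6% in controls and 27.3, 43.3, 41.5 and 33.3% after BG (exact permutation test p = 0.943). In a T cell gate of the same libraries this share had medians of 4.09 and 3.69%.

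**Figure D4:**
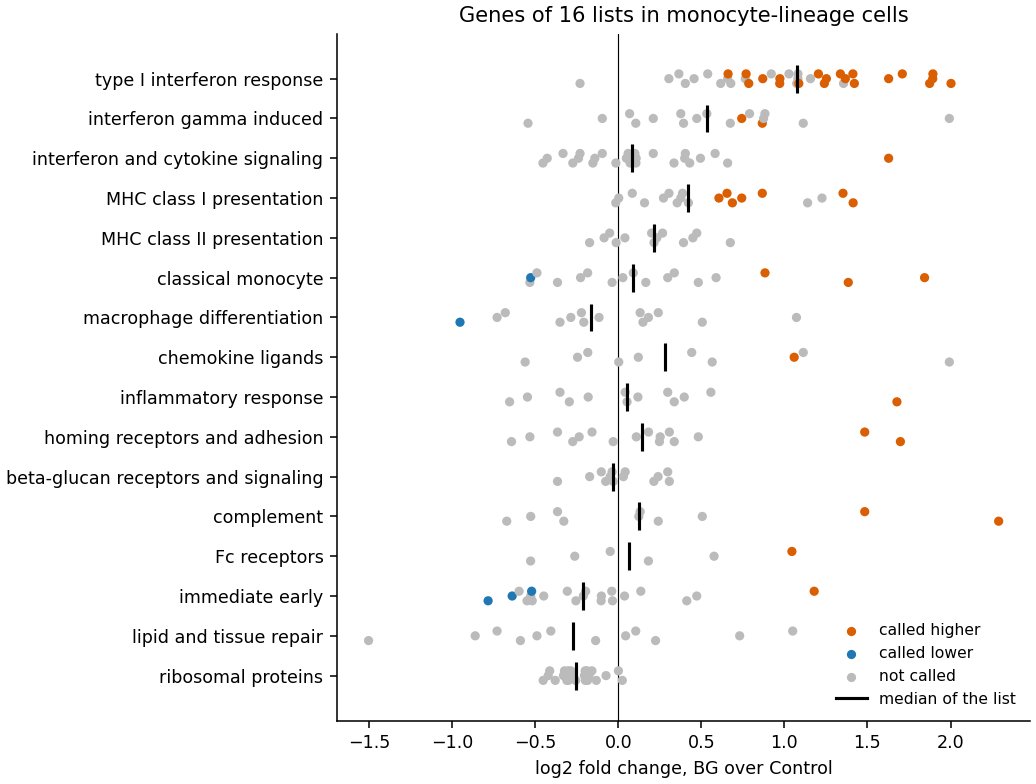
Log2 fold change of BG over control (x axis) for the tested genes of 16 lists (rows), 1 point per gene, with the median of each list as a black line. Orange marks genes called higher and blue genes called lower; the type I interferon list has 20 of 37 genes in orange and the MHC class II list none of 13.

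Genes of classical monocytes moved in both directions. Of 17 listed genes, all of which passed the filter, 3 rose and 1 fell, with a median of 0.09. Ly6c2, which encodes the Ly6C surface protein that marks classical monocytes in mice (chromosome 15, 75108158 to 75111970, GRCm38), had 657, 1091, 674 and 1200.1 CPM in controls and 4089, 2603, 3627 and 2786 CPM after BG. The groups were far apart and the adjusted p was the smallest of all genes (1.84 ± 0.19, edgeR adjusted p = 3.68e-05). Plac8, a small cysteine-rich protein abundant in these monocytes, rose from 2527, 3568, 2546 and 2862 CPM to 5467, 4209, 6669 and 4922 CPM (0.88 ± 0.14, edgeR adjusted p = 0.00204). Ly6i rose, a call kept in 3 of 8 fits with 1 library left out, as did Ly6a, better known as Sca-1, which had 32.2, 47.1, 90.6 and 36.9 CPM against 195, 180.1, 308 and 192 CPM (2.26 ± 0.29, edgeR adjusted p = 0.000345).

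The share of thinned cells with at least 1 UMI of Ly6c2 was 57.9, 66.7, 52.2 and 61% in controls and 84.8, 76.7, 83.1 and 85.4% after BG. The groups did not overlap, and means were 59.4 ± 6.05 and 82.5 ± 4.02% (SD, n = 4 each, exact permutation p = 0.0286, adjusted over 4 cell states p = 0.114). In the gate without Ms4a4c the means were 66.9 and 95.3%. Background in cells that should hold no monocyte RNA was 4.08 and 9.14% of thinned cells (median over libraries, B cell gate). T cells, which can express Ly6c2 themselves, had 25 and 36.8%. These cells were thinned to the same depth, and cells below that depth were left out. Before thinning, median depths in these gates were 1694.5 and 1944 UMIs for B cells and 3265.75 and 4125 UMIs for T cells.

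Lysozyme moved the other way. Lyz2, the lysozyme of myeloid cells, fell from 21362, 20345, 15478 and 18685 CPM to 12390.3, 13504, 14572 and 12207 CPM (-0.53 ± 0.11, edgeR adjusted p = 0.0145). Every BG library was below every control library, but the call held in 8 of 18 alternatives (-0.61 to -0.39) and was lost in the gate without Ms4a4c (-0.39, edgeR adjusted p = 0.0834). C1qa had 180.5, 124, 342 and 12.3 CPM against 343, 129, 156 and 103 CPM, and Adgre1, which encodes F4/80, had 68.4 to 141 CPM against 62.3 to 90.1 CPM, both with overlapping groups. Cells with at least 3 UMIs of the C1q genes made up 7.02, 3.51, 8.70 and 0% of thinned cells in controls and 9.09, 5.0, 7.69 and 4.17% after BG (exact permutation p = 0.457), and all 21 of them were also in the MHC class II set. The control replicate without such cells had 41 thinned cells. Cx3cr1, the fractalkine receptor of patrolling monocytes, was not called (-0.53 ± 0.19, edgeR adjusted p = 0.243).

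Among immediate early genes, which cells switch on within minutes of a stimulus, tissue digestion included, 21 of 25 passed the filter, 3 fell, 1 rose, and the median was -0.21. None fell without control replicate 1, 3 or 4 or BG replicate 7 or with at most 10% mitochondrial UMIs, 1 fell without BG replicate 8, 5 fell in the gate without Ms4a4c and 6 with at most 2500 genes. Klf4, a transcription factor of monocyte differentiation, had 632, 548, 896 and 634 CPM against 491, 429, 288 and 359 CPM (-0.78 ± 0.18, edgeR adjusted p = 0.0255). Jun and Jund, subunits of AP-1, fell by 0.52 and 0.64, with edgeR adjusted p of 0.0342 and 0.0284, and Ier3 rose by 1.18. Of 8 fits with 1 library left out, Klf4 and Jund kept their calls in 3 and Jun and Ier3 in 2. In all other kept barcodes Klf4, Jun and Jund had -0.42, -0.43 and -0.55 (edgeR adjusted p of 0.0235, 0.0329 and 0.0163). In the KC gate they had -1.12, -1.12 and -0.60 (edgeR adjusted p of 0.171, 0.0124 and 0.125). None of them was called as different between monocyte-lineage cells and either of these. Outside the lists, Slc4a7, a sodium bicarbonate cotransporter, Rbm22, a splicing factor, and Cox7a2l, an assembly factor of respiratory supercomplexes, had log2 fold changes of -1.28, -1.18 and -0.58 (edgeR adjusted p of 0.0477, 0.0438 and 0.0398). Each of these 3 calls was lost without any 1 of the 8 libraries (edgeR adjusted p of 0.0519 to 0.193 for Slc4a7). Ribosomal protein genes had a median of -0.26 over 25 genes, 23 of them negative, and 0 were called by edgeR (15 at an unadjusted p under 0.05).

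**Figure D5:**
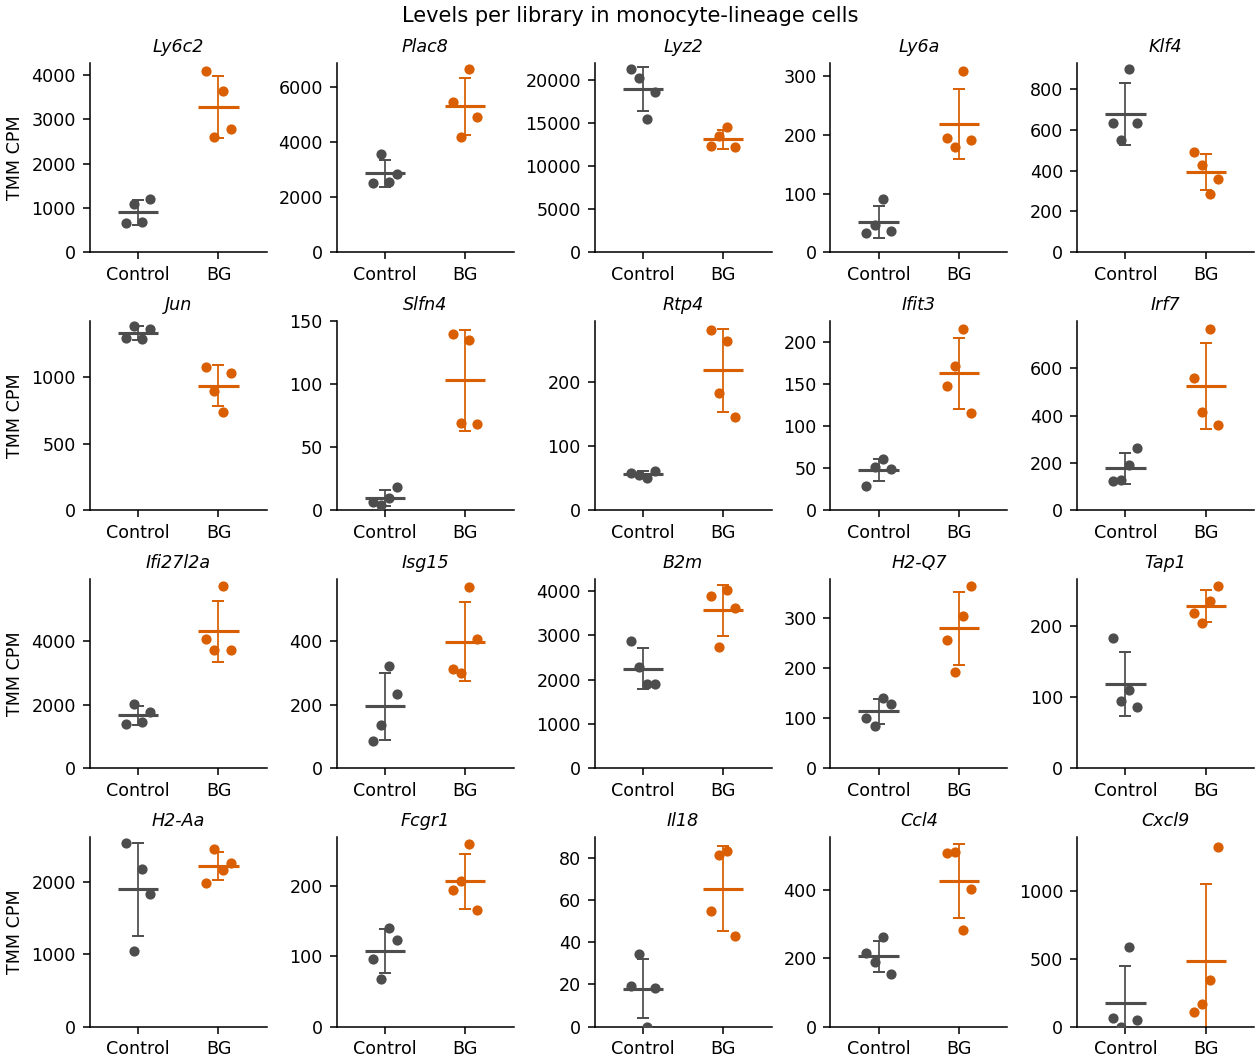
Level of 20 named genes (y axis, TMM CPM, from 0) in the monocyte-lineage cells of each library. Points are libraries, lines and bars the mean and SD of 4 control (grey) and 4 BG (orange) libraries; Ly6c2 and Irf7 do not overlap, H2-Aa and Cxcl9 do.

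Receptors, chemokines and cytokines gave few calls. Itgax, which encodes the integrin CD11c, rose by 1.48 (edgeR adjusted p = 0.0284), and its groups overlapped. The call held only without BG replicate 5 or control replicate 3 when 1 library was left out, and the change was small before the excluding genes were applied (0.16, edgeR adjusted p = 0.930). Ccl4, an inflammatory chemokine, had 216, 188, 262 and 154 CPM against 506, 510.4, 281 and 402 CPM (1.06 ± 0.20, edgeR adjusted p = 0.0101). In all other kept barcodes its means were 344 and 358 CPM. The 3 tested NK cell genes had log2 fold changes of 1.03 to 1.42 in the gated cells, each at an unadjusted p under 0.05 (edgeR). The part of NK cell RNA in the Ccl4 values was not tested. Il18, a cytokine released after inflammasome cleavage, was at 0 to 34.2 CPM in controls and 42.7 to 83.1 CPM after BG (1.68 ± 0.41, edgeR adjusted p = 0.0398, lost without BG replicate 5 or control replicate 1, 3 or 4). Fcgr1, the high-affinity receptor for IgG, had 96.7, 68.4, 141 and 123 CPM against 195, 207, 259.8 and 167 CPM (1.05 ± 0.22, edgeR adjusted p = 0.0187, lost without BG replicate 7 or control replicate 1 or 2). Cfb, complement factor B, rose by 2.29 (edgeR adjusted p = 0.0284), with 378 CPM in BG replicate 7 against 72.1 to 145 CPM in the other BG libraries, and without that library the value was 1.47 (edgeR adjusted p = 0.113). Its call was also lost without BG replicate 8 or any 1 control library (edgeR adjusted p of 0.0536 to 0.156).

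Several chemokines and cytokines varied between mice of a group. Cxcl9, a ligand of the receptor Cxcr3 on T cells, was at 61.2, 0, 584 and 49.2 CPM in controls and at 109, 165, 343 and 1320.3 CPM after BG (1.99 ± 0.81, edgeR adjusted p = 0.319). Cxcl10, another such ligand, had 68.4 to 976 CPM in controls and 467 to 1004 CPM after BG (edgeR adjusted p = 0.311). Neither passed the test, and the groups overlapped. With 1 library left out in turn, each was called in 1 of 8 fits. The log2 fold change ran from 0.82 to 3.69 for Cxcl9 (lowest edgeR adjusted p = 0.0360) and from 0.73 to 1.92 for Cxcl10 (lowest edgeR adjusted p = 0.0105). Il1b, Tnf and Ccl2, which encode inflammatory cytokines and a monocyte attractant, had log2 fold changes of -0.29, 0.40 and -0.18 with adjusted p of 0.895, 0.812 and 0.865. Spp1, which encodes osteopontin, stood at 1134 CPM in control replicate 2 and at 1183 and 1337 CPM in BG replicates 6 and 8, and at 0 to 45.0 CPM in the other 5 libraries. The groups overlapped (1.05 ± 0.97, edgeR adjusted p = 0.793).

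Some genes of macrophage polarization were too low to test. Nos2, inducible nitric oxide synthase, had 1 UMI in all 8 libraries. Arg1, arginase 1, had 22 UMIs in controls, 17 of them in control replicate 3, and 3 UMIs after BG. Mrc1, the mannose receptor, had 2 to 7 UMIs per control library and 3 to 14 per BG library, Cd38, an ectoenzyme, 1 to 4 and 0 to 6, and Cd274, which encodes PD-L1, 2 to 8 and 4 to 14. Of 22 listed genes of β-glucan receptors and signaling, 13 passed the filter, 0 were called by edgeR or DESeq2, 1 had an unadjusted p under 0.05 (edgeR), and the median was -0.03. Glycolysis (12 genes tested), oxidative phosphorylation (28) and heat shock (12) gave 0 calls by edgeR (1, 1 and 4 genes with an unadjusted p under 0.05), with medians of -0.03, 0.02 and 0.09.

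Alb, the albumin gene of hepatocytes, rose in these cells from 70.9, 145, 70.4 and 43.1 CPM to 187, 303, 232 and 273 CPM (1.56 ± 0.26, edgeR adjusted p = 0.00294). In barcodes with fewer than 200 genes its median over libraries was 491 CPM in controls and 505 CPM after BG, and before the excluding genes were applied its change in the candidates was -1.57 (edgeR adjusted p = 0.247). Within the gate it was 0.87 with at least 3 of the 5 genes (edgeR adjusted p = 0.399) and 1.01 with at most 2500 genes (edgeR adjusted p = 0.183).

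The last question was whether these changes differed from those in other cells of the same mice, tested as an interaction with the mouse as a block. Against the KC gate (Csf1r with Clec4f or Timd4 and at least 2 KC genes in all), 7 libraries had at least 10 cells of each kind, since control replicate 1 held 8 such KCs. Of 1975 genes 0 differed at an adjusted p under 0.05 (edgeR), 171 did at an unadjusted p under 0.05, and with another scaling (RLE size factors) the counts were 0 and 173. The median standard error of the difference among the 41 tested genes that rose in monocyte-lineage cells was 0.43. In the KC gate itself 24 of 2176 genes were called (1.1%). Ifi27l2a rose by 1.31 in KCs (interaction 0.05 ± 0.22). Rtp4 (0.50 in KCs, interaction 1.59 ± 0.43) and Alb were among the genes with the smallest adjusted p, which was 0.219 (edgeR).

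Against all other kept barcodes, a mixture of mostly lymphocytes and other cells, 7 of 3535 genes (0.198%) differed in their response. The rise was larger in monocyte-lineage cells for H2-Q7 (by 1.23 ± 0.21, against 0.22 in the other barcodes, edgeR adjusted p = 0.0138) and for Ly6c2 (by 0.82 ± 0.15, against 1.11, edgeR adjusted p = 0.0138). It was smaller for the interferon genes Ifi27l2a (-0.69 ± 0.12, against 2.14), Ifitm3 (-0.87 ± 0.14, against 1.24) and Ifi207 (-1.14 ± 0.19, against 1.26). In control libraries Ifitm3 stood at 3798 CPM in monocyte-lineage cells and 303 CPM in the other barcodes, and Ifi207 at 326 and 28.6 CPM. Lyz2, which fell in monocyte-lineage cells, had 0.25 in the other barcodes, and this difference (-0.74 ± 0.12) was also past the threshold (edgeR adjusted p = 0.0131). None of these differences was tested in the gate without Ms4a4c, in which the call of Lyz2 in monocyte-lineage cells was lost. The mixture can change in its makeup with BG, and this cannot be told apart from a response within its cells. A gate of non-classical monocytes held 4 to 12 cells per library and was too small for this test.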

How the data were processed

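scRNAseq was performed on liver leukocytes of 8 mice with the 10x Genomics 3′ kit, v3.1. The authors aligned reads to mm10 with introns included, using Cell Ranger (6.1.2 in the file headers), and deposited raw UMI counts per gene and barcode, with 127557 barcodes and 32285 genes; the annotation release is not given in the sources used here. No column of another sample was used. Members and gene lists were chosen with earlier results of these data known. Of 558 listed genes 552 were found in the files, and some genes of the naming rule are not reported here.

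The gate, thinning and shares were computed in Python 3.11.15 (numpy 2.4.6, scipy 1.17.1, pandas 2.3.3, figures with matplotlib 3.10.9). UMI counts were summed over the gated cells of a library with at least 10 cells, filtered with filterByExpr, scaled by TMM and tested with the quasi-likelihood F test of edgeR 4.0.16 (limma 3.58.1, R 4.3.3); the study used DESeq2 (1.42.0 here), which is an alternative. Interactions had the mouse as a block. Shares were compared by two-sided exact permutation. The fit was tested on simulated data with known changes. No doublet caller was run; the 7 excluding genes remove barcodes that carry RNA of those other cells. Each library is 1 mouse, with 23 to 68 gated cells and 113146 to 353450 UMIs. The precision depends on these counts and on the spread between the 4 mice of a group. Shares per library had exact (Clopper-Pearson) 95% intervals, for counting error only. Alternatives were another scaling and tool, no gene filter, other gates, other limits on genes and mitochondrial UMIs, and leaving out each library. Named genes were the 12 risen and 8 fallen genes with the largest changes (mean of at least 50 CPM in a group, no overlap, gate genes left out), up to 3 called genes per list by mean level, a set always given, and up to 4 called genes per direction with the smallest p of each interaction; up to 3 promoters with the motif were printed. Gene positions are from GENCODE vM21, in which 32158 gene IDs were found. The interaction with cells of at least 3 C1q UMIs and that with non-classical monocytes could not be fitted, with fewer than 10 cells in most libraries.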

Additional observations from a re-analysis of the deposited data

Results flagged for a closer look

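There were 7 genes that responded to BG differently in monocyte-lineage cells and in all other kept barcodes of the same mice, by the interaction test. For 6 of them the difference of the log2 fold changes was 1.23 for H2-Q7 and 0.82 for Ly6c2, and -0.87 for Ifitm3, -0.74 for Lyz2, -1.14 for Ifi207 and -0.69 for Ifi27l2a. The gate without Ms4a4c was not used for this test, and the fall of Lyz2 in monocyte-lineage cells was not called in it.

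In 7 of 172 groups of 4 libraries examined, 1 library lay far from the other 3 (gap over range above 0.829), and chance gives about 1 in 20. BG replicate 7 was high for Ly6a (308 CPM against 180.1 to 195) and for Ifi27l2a (5730.3 CPM against 3719.9 to 4057). BG replicate 6 was low for H2-K1 (1672 CPM against 2162 to 2245) and for H2-T22 (114 CPM against 162 to 171). Control replicate 1 was low for Bst2 (213 CPM against 382 to 415). Control replicate 2 was high for Spp1 (1134 CPM against 0 to 30.2), and control replicate 3 was high for Cxcl9 (584 CPM against 0 to 61.2).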

How the results depend on the processing

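Of 3535 genes 54 were called higher and 10 lower. No filter on low counts gave 108 and 23 calls and at most 10% mitochondrial UMIs, with 6 libraries left, gave 3 and 0. Further excluding genes gave 38 higher and 5 lower calls of 2084 genes, and 33 of the 54 and 4 of the 10 were kept. DESeq2 gave 41 higher and 8 lower calls, and 1988 of the 3535 genes had no adjusted p. With each library left out in turn, 25 to 59 genes were called higher (25 without control replicate 1, 26 without BG replicate 7, 28 without control replicate 2) and 2 to 7 lower (2 without control replicate 1, 3 without BG replicate 8, 4 without control replicate 2 or 4 or BG replicate 5 or 7, 6 without control replicate 3, and 7 without BG replicate 6). The type I interferon list had 1 called gene of 27 with at most 10% mitochondrial UMIs, 6 of 40 without control replicate 1 and 10 of 36 without BG replicate 7 and 19 of 31 in the gate without Ms4a4c. The difference from KCs gave 3 genes without control replicate 4 and 0 in the other fits. The share of kept barcodes rose by 1.38 percentage points before the excluding genes (exact permutation p = 0.0286), a setting with Ms4a4c in the gate and no thinning. Leaving out a library allows no p below 0.0571, so the Ly6c2 share (differences of 20.7 to 25.5 percentage points) and the interferon genes per cell (4.83 to 5.36) fell short of 0.05 in each case with the same direction. The MHC class II share changed sign without control replicate 2 (-0.29), BG replicate 6 (-1.78) or BG replicate 7 (-1.18), in a range of -1.78 to 3.58 percentage points. Before the excluding genes, Alb turned to -1.57, Spp1 to -0.33 and H2-Aa to -0.12. With further excluding genes H2-Aa turned to -0.037 and C1qa to -0.35, and without Ms4a4c H2-Aa turned to -0.12, Il1b to 0.22 and Ccl2 to 0.14. With 3 of the 5 gate genes Il1b turned to 0.19 and Ccl2 to 0.13. With 1 library left out, C1qa ran from -0.22 (without BG replicate 5 or control replicate 4) to 0.51, Il1b from -1.03 to 0.064 (positive without BG replicate 6, 0.0037, or control replicate 3) and Ccl2 from -0.29 to 0.039 (positive without BG replicate 6). Of 1036 fits of 61 called genes under the alternatives, 709 kept the call, 326 lost it with the same direction and 1 had the opposite direction. Of 220 fits of 13 named genes not called, 11 gave a call and 14 had the opposite direction. In these counts 22 DESeq2 fits without an adjusted p were left out. The cause was not tested. No paired analysis was possible because the replicate numbers of the groups, 1 to 4 and 5 to 8, share none.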

Other observations

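Some genes outside the naming rule were chosen after their values had been seen. Xcr1, the chemokine receptor of conventional dendritic cells of type 1, had 0, 1, 0 and 0 UMIs in the gated cells of control replicates 1 to 4 and 1, 4, 13 and 14 UMIs in those of BG replicates 5 to 8. In all other kept barcodes its median over libraries was 10.7 CPM in controls and 12.8 CPM after BG. With at most 2500 genes per barcode 1 UMI was left in each group, and with 3 or more of the 5 gate genes 0 and 18 UMIs. S100a8 and S100a9, the subunits of calprotectin in neutrophils and monocytes, had 1 and 0 UMIs in all controls and 55 and 67 UMIs after BG, 53 and 64 of which were in BG replicates 7 and 8. Both genes are also abundant in neutrophils, and the summed level of 10 neutrophil genes in the gated cells was 91.4 to 152 CPM in controls and 94.7 to 388 CPM after BG. The part of the neutrophil genes in these values was not tested.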
